A study of Homo sapiens with 6 samples.

Results

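The genes described here are 10 transcripts that ERK signalling switches on and whose products mostly act back on the pathway: the MAP kinase phosphatase genes DUSP4, DUSP5 and DUSP6, the Sprouty genes SPRY2 and SPRY4, the Sprouty-related genes SPRED1 and SPRED2, the ETS transcription factor genes ETV4 and ETV5, and PHLDA1. They were taken by symbol from a count table of 17534 genes, and all 10 were present and passed the filter on low counts. The data are RNA sequencing libraries of NCI-H1703, an established human lung tumour line that the labels call squamous, with 3 control libraries of genotype Sh-NC and 3 libraries of genotype Sh-PPM1G, which carry a short hairpin RNA (shRNA) against PPM1G, a nuclear serine/threonine phosphatase of the PP2C family. No agent, dose or time course is named in the labels. The series text calls the control cells wild-type. The hairpin sequence, the number of clones and the culture behind each library were not given in the sources used here. All p-values therefore rest on the spread among 6 libraries of 1 cell line, which may be technical. Library totals ranged from 31337553 to 35838246 counts.

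ERK is the last kinase of the RAS, RAF and MEK cascade that growth factor receptors drive, and it phosphorylates transcription factors that induce a fast set of target genes. Several targets form negative feedback: dual-specificity phosphatases (DUSPs) remove phosphate from ERK, Sproutys act between receptors and RAF, and SPREDs bring the RAS inactivator neurofibromin to the membrane. ETV4 and ETV5 belong with ETV1 to the PEA3 subfamily of ETS factors, which growth factor signalling induces in developing lung epithelium and which the repressor Capicua (CIC) holds down when ERK is quiet. Transcripts of these families are widely used as readouts of ERK output in tumour cells.

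The targeted transcript and the cell labels were checked first. PPM1G stood at 333, 308 and 324 CPM (counts scaled to a common library size with TMM factors) in control libraries 1 to 3, and at 182, 194 and 188 CPM in PPM1G shRNA libraries 1 to 3, or 58.5% of control (log2 fold change −0.77, SE 0.03, adjusted p = 3.3e-20 in edgeR's quasi-likelihood test). Of 6 squamous markers, SOX2 was present at 21.8 to 24.5 CPM in control and 9.99 to 11.2 CPM in PPM1G shRNA libraries, TP63 at 1.14 to 1.75 and 0.567 to 1.05 CPM, and KRT6A, KRT14 and DSG3 had at most 2 counts in any of the 6 libraries. KRT5 was not analysed here. Of 4 lung adenocarcinoma markers, SFTPB and SFTPC did not pass the filter on low counts. NKX2-1 stood at 106 to 121 CPM in control and 115 to 128 CPM in PPM1G shRNA libraries. NAPSA rose from 2.16 ± 0.23 to 21.8 ± 0.40 CPM (SD, n = 3; adjusted p = 5.9e-24 in edgeR's test). PDGFRA, a receptor gene known to be amplified and strongly expressed in NCI-H1703, had 4 to 8 counts per library. Of 9 markers of other cell types, PTPRC, CD3E, MS4A1 and CDH5 had group means of 0 to 0.0971 CPM, and MS4A1 was at 0 in every library. The summed level of the 9 was 1411 to 1463 CPM in control and 897 to 938 CPM in PPM1G shRNA libraries, most of it CD68, a lysosomal protein gene of macrophages (1266 ± 31 and 566 ± 16 CPM). Of the 4 that passed the filter, CD68, the endothelial gene PECAM1 (log2 fold change −2.30, SE 0.20) and the collagen gene COL1A2 (−0.69, SE 0.14) fell, whereas the fibroblast collagen gene COL1A1 rose from 154 ± 9.0 to 344 ± 5.1 CPM (SD, n = 3; adjusted p = 3.2e-24 in edgeR's test). The part of these markers in the results below was not tested. These values do not match what is known of the labelled line in every respect, and the cells are therefore called by their labels only.

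All 10 ERK feedback genes fell in the PPM1G shRNA libraries (10 of 10 at an adjusted p under 0.05 in edgeR's quasi-likelihood test with Benjamini-Hochberg adjustment over 13060 genes). Over all genes tested, 41.3% fell and 82.9% changed in either direction, so a call alone does not set a gene apart. In size, 6 of the 10 were at least 2-fold lower, where 12.4% of all genes were called and at least 2-fold lower. DUSP5 and SPRED2 lay closest to that cut, and both fell just short of it on the log2(FPKM + 1) scale. The median log2 fold change was −1.14 over the 10 genes and 0.01 over all genes tested. The 10 genes were chosen with earlier results of these data known, so these comparisons describe them and do not test them as a set. For all 10 genes every PPM1G shRNA library lay below every control library, which held for 41.8% of all genes. ETV4 (3.48% of its control level), DUSP6 (7.06%), ETV5 (11.8%) and SPRY4 (14.2%) fell most, SPRED2 and DUSP5 fell to 44.3% and 46.5%, and SPRY2, PHLDA1, DUSP4 and SPRED1 kept 61.3% to 69.0%. In bulk RNA, fewer cells that express a gene and less of its RNA per cell cannot be told apart.

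**Figure D1:**
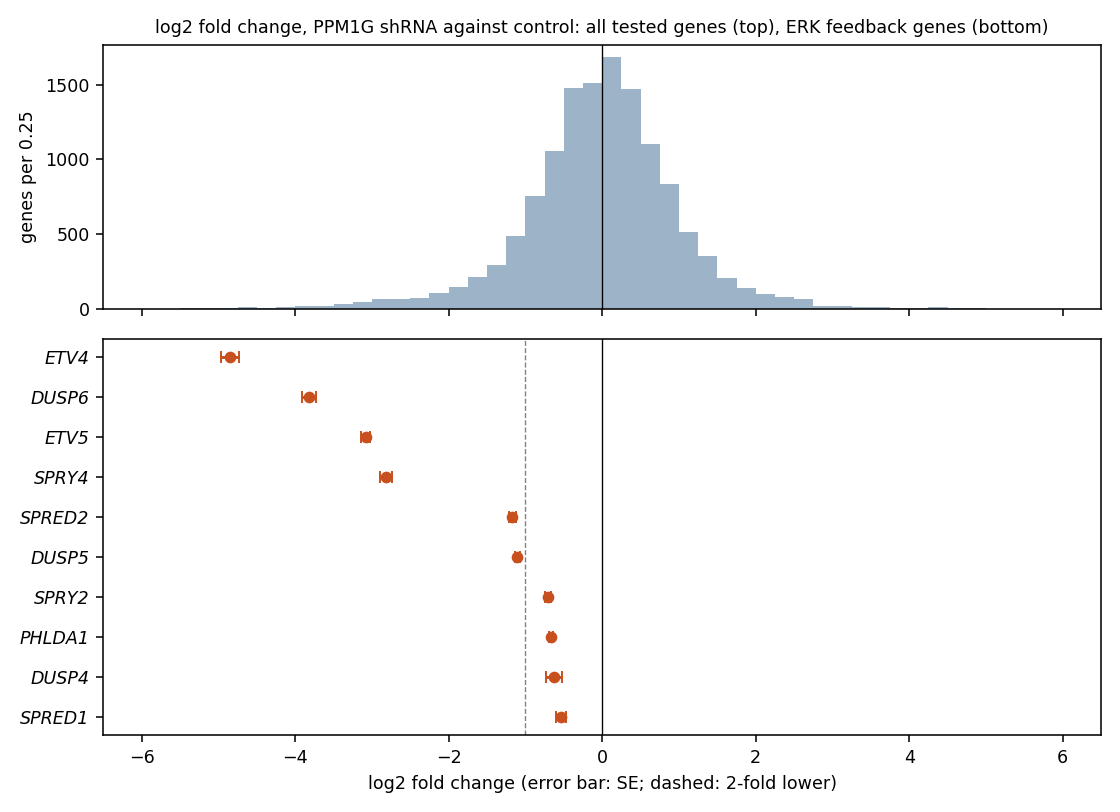
Log2 fold change of PPM1G shRNA against control libraries on the x axis, as a histogram of all 13060 tested genes (top, number of genes per 0.25) and for the 10 ERK feedback genes (bottom, points with SE from edgeR). All 10 points lie left of 0, from −0.54 for SPRED1 to −4.85 for ETV4, with a gap between SPRY4 at −2.82 and SPRED2 at −1.17.

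Levels were compared between genes as FPKM, which divides counts by library total and gene length. FPKM values carry no TMM factors, so their percentages of control differ somewhat from those of TMM-scaled values. DUSP5 was by far the most abundant of the 10 transcripts, at 416 ± 12 FPKM in control and 207 ± 1.4 FPKM in PPM1G shRNA libraries (SD, n = 3). In control libraries SPRY2 (43.6 ± 1.8 FPKM) and PHLDA1 (43.4 ± 1.3 FPKM) followed, and their ranges overlapped. ETV5, SPRED2, DUSP6, ETV4, SPRY4, SPRED1 and DUSP4 came next in that order, from 22.2 ± 0.89 down to 1.20 ± 0.019 FPKM, each without overlap with its neighbour. In PPM1G shRNA libraries the order differed: ETV4 moved from the 7th to the 10th place, at 0.384 ± 0.079 FPKM, and SPRED1, at 2.38 ± 0.12 FPKM, stood above SPRY4 and DUSP6. SPRY4 (1.04 ± 0.15 FPKM), DUSP6 (0.881 ± 0.15 FPKM) and DUSP4 (0.836 ± 0.016 FPKM) formed a row in which each gene overlapped the next. Because DUSP5 alone made up 71.9% ± 0.63 of the summed FPKM of the 10 genes in control and 73.3% ± 0.49 in PPM1G shRNA libraries, the sum fell to 49.0% of control, close to the change of DUSP5 itself.

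**Figure D2:**
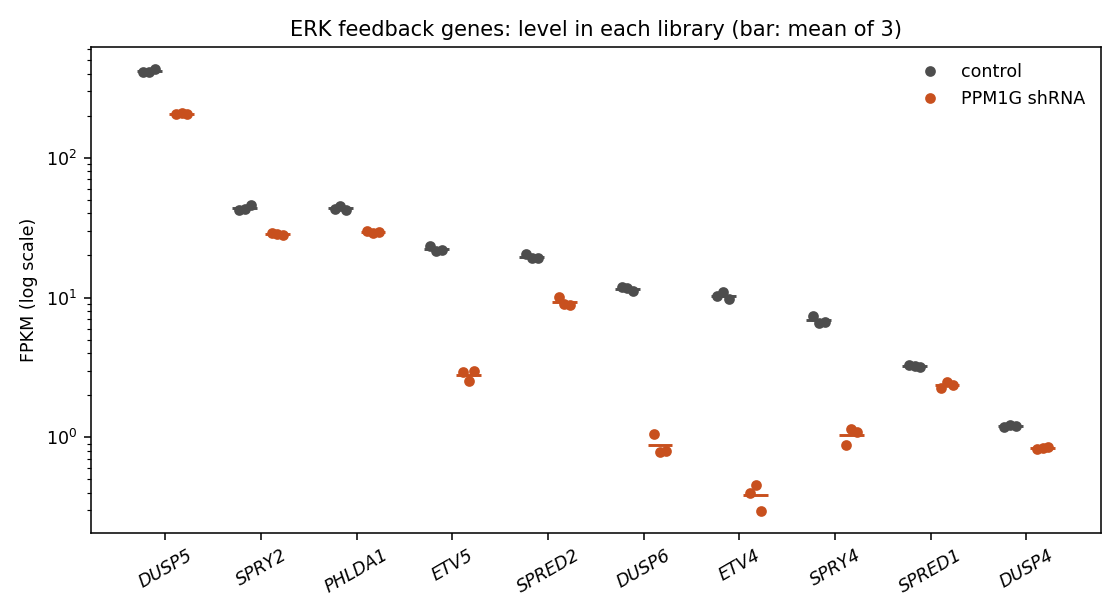
FPKM (log axis) of the 10 ERK feedback genes in each of the 3 control (grey) and 3 PPM1G shRNA (orange) libraries, with genes ordered by their control mean (bars: means of 3). The groups do not overlap for any gene, and ETV5, DUSP6, ETV4 and SPRY4 drop farther than genes of similar control level such as SPRED2 and SPRED1.

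Among the phosphatases, DUSP6, which encodes a cytoplasmic phosphatase selective for ERK (Entrez 1848; chromosome 12, positions 89347235 to 89352501 on GRCh38), stood at 44.9, 43.5 and 42.1 CPM in control libraries 1 to 3 and at 3.71, 2.75 and 2.80 CPM in PPM1G shRNA libraries 1 to 3. The groups lay far apart, and PPM1G shRNA library 1 was the highest of its group. DUSP6 fell by 3.82 on the log2 scale (SE 0.09, adjusted p = 2.1e-27 in edgeR's quasi-likelihood test), and 0.505% of all tested genes had a lower log2 fold change. DUSP5, the nuclear phosphatase of the same selectivity (Entrez 1847; chromosome 10, positions 110497907 to 110511533), stood at 1049.8, 1046 and 1102 CPM in control and 494, 498 and 496 CPM in PPM1G shRNA libraries. It fell by 1.10 (SE 0.03, adjusted p = 4.9e-27), and its PPM1G shRNA libraries were nearly equal. DUSP4, a nuclear phosphatase that also acts on JNK and p38 (Entrez 1846; chromosome 8, positions 29333064 to 29350684), was scarce, at 8.93, 9.18 and 9.08 CPM in control and 5.78, 5.86 and 5.98 CPM in PPM1G shRNA libraries. Its fall of 0.63 (SE 0.11, adjusted p = 3.2e-06) had the widest relative error of the 10 genes. No strand setting is stated for the counts, and 40.5% of the exon bases of DUSP6 in GENCODE also belong to AC024909.2, an antisense gene not analysed here, so reads of these genes cannot be told apart.

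The members of the phosphatase family were also compared within each library, which does not depend on how libraries are scaled. The FPKM of DUSP5 was 34.3, 35.2 and 38.3 times that of DUSP6 in control libraries 1 to 3, and 195, 265 and 259 times in PPM1G shRNA libraries 1 to 3. The FPKM of DUSP6 was 10.1, 9.51 and 9.30 times that of DUSP4 in control libraries and 1.29, 0.943 and 0.939 times in PPM1G shRNA libraries, so these genes stood at about the same level in the latter. The log2 ratio of DUSP5 to DUSP6 rose by 2.73 (SE 0.15) and that of DUSP4 to DUSP6 by 3.20 (SE 0.15), whereas DUSP4 moved against DUSP5 by 0.48 (SE 0.03). In each of the 6 paralog ratios tested here and below the groups did not overlap, and each had p = 0.10 in a two-sided exact permutation test over 3 against 3 libraries, the smallest p this design allows, and 0.10 after Benjamini-Hochberg adjustment over the 6.

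The Sproutys were unequal in the same way. SPRY4 (Entrez 81848; chromosome 5, positions 142310430 to 142325021) stood at 54.6, 48.8 and 49.4 CPM in control libraries 1 to 3 and at 6.06, 7.97 and 7.57 CPM in PPM1G shRNA libraries 1 to 3. It fell by 2.82 on the log2 scale (SE 0.08, adjusted p = 1.2e-24 in edgeR's test), with PPM1G shRNA library 1 the lowest of its group, although the same library was the highest of its group for DUSP6. SPRY2, the most studied Sprouty in lung branching (Entrez 10253; chromosome 13, positions 80335976 to 80341126), stood at 152, 153 and 164 CPM in control and at 97.7, 95.8 and 93.9 CPM in PPM1G shRNA libraries. Its fall of 0.71 (SE 0.04, adjusted p = 6.7e-18) left no overlap between the groups. Within libraries, the FPKM of SPRY2 was 5.73, 6.502 and 6.86 times that of SPRY4 in control and 33.3, 24.9 and 25.7 times in PPM1G shRNA libraries, a rise of the log2 ratio by 2.13 (SE 0.15). The paralogs SPRY1 and SPRY3 were scarce: SPRY1 stood at 1.24 ± 0.066 CPM in control and 1.02 ± 0.13 CPM in PPM1G shRNA libraries (SD, n = 3; adjusted p = 0.33 in edgeR's test), and SPRY3 did not pass the filter. SPRY2 thus made up 85.7% ± 1.1 of the Sprouty FPKM in control and 95.3% ± 0.62 in PPM1G shRNA libraries.

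SPRED2 (Entrez 200734; chromosome 2, positions 65307175 to 65432599) stood at 131, 123 and 123 CPM in control libraries and at 60.3, 53.8 and 53.0 CPM in PPM1G shRNA libraries, with library 1 highest in both groups. It fell by 1.17 on the log2 scale (SE 0.05, adjusted p = 3.9e-21 in edgeR's test). SPRED1, the paralog mutated in Legius syndrome (Entrez 161742; chromosome 15, positions 38252836 to 38357249), stood at 30.2, 29.6 and 29.1 CPM in control and at 19.5, 21.4 and 20.4 CPM in PPM1G shRNA libraries. Its fall of 0.54 (SE 0.07, adjusted p = 5.9e-09) was the smallest of the 10 genes. The log2 ratio of SPRED1 to SPRED2 counts rose by 0.64 (SE 0.10), a smaller shift than for the Sprouty pair. SPRED3, the remaining SPRED gene, fell by 2.43 (SE 0.09), from 35.9 ± 2.7 to 6.68 ± 0.99 CPM (SD, n = 3; adjusted p = 1.2e-21 in edgeR's test), and its share of the SPRED FPKM went from 22.6% ± 0.76 to 10.2% ± 1.1.

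Promoter sequences are shown for SPRY4, SPRY2 and SPRED2. They describe single windows, and their part in the unequal falls of the paralogs was not tested. A table of promoter sequences from RefSeq (GRCh38.p14) was matched by symbol to 6 of the 10 genes, with 9 start sites in all, and the 250 bases before each start were searched on both strands. Only stretches outside every GENCODE exon are printed, on the strand of the gene and 5′ to 3′, with each GGAA core of ETS sites (or TTCC, its reverse complement) in capitals. SPRY4 is shown upstream of a start site inside the gene (chr5:142324418-142324497), SPRY2 and SPRED2 upstream of their outermost start sites (chr13:80341127-80341376 and chr2:65432638-65432849), all on the minus strand.
SPRY4: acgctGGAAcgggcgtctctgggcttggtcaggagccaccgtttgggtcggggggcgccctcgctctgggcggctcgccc
SPRY2: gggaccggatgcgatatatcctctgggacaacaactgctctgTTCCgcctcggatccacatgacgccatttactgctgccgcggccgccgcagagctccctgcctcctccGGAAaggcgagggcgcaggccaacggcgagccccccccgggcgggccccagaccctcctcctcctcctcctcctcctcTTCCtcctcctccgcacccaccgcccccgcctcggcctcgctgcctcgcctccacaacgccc
SPRED2: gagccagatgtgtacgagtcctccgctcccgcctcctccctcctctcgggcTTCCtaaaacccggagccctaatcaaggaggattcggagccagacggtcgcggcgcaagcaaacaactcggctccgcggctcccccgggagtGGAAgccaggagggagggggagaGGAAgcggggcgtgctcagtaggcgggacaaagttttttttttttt
The core was found 1 time in the 80 bases of SPRY4, 3 times in the 250 bases of SPRY2 and 3 times in the 212 bases of SPRED2. Windows of 250 bases at inner start sites, not printed, held 4 cores each for SPRY2 and 5 cores for SPRED2. It occurs in 92.7% of the 35116 RefSeq windows of 250 bases and is thus common to most promoters. Promoters of DUSP4, DUSP5, ETV4 and ETV5 were not analysed here. The windows of DUSP6, PHLDA1 and SPRED1 have an annotated exon at their 5′ end, and no stretch of them is printed. The longer ETS site CCGGAAGT, which contains the core, the CIC octamers TGAATGAA and TGAATGGA, the AP-1 site TGANTCA and the cyclic AMP element TGACGTCA were each found in 0 of the 9 windows. Among all windows they occur in 3.42% (ETS site), 2.19% (either CIC octamer), 6.57% (AP-1 site) and 1.65% (cyclic AMP element).

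ETV4 showed the deepest fall of the 10 genes. ETV4 (Entrez 2118; chromosome 17, positions 43527846 to 43546340) stood at 28.6, 30.7 and 27.6 CPM in control libraries 1 to 3 and at 1.05, 1.19 and 0.781 CPM in PPM1G shRNA libraries 1 to 3, which is 34, 44 and 29 counts. It fell by 4.85 on the log2 scale (SE 0.12, adjusted p = 5.1e-27 in edgeR's test), and 0.138% of all tested genes had a lower log2 fold change. ETV5 (Entrez 2119; chromosome 3, positions 186046314 to 186109089) stood at 98.2, 91.1 and 92.1 CPM in control and at 11.6, 9.89 and 11.8 CPM in PPM1G shRNA libraries. It fell by 3.08 (SE 0.06, adjusted p = 1.2e-29), again with no overlap. Within libraries, the FPKM of ETV5 was 2.28, 1.97 and 2.21 times that of ETV4 in control and 7.35, 5.53 and 10.01 times in PPM1G shRNA libraries, a rise of the log2 ratio by 1.78 (SE 0.26) with a wide spread among the latter.

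The remaining PEA3 factor gene, ETV1, changed by a smaller amount. ETV1 fell by 1.62 (SE 0.04), from 342 ± 14 to 111 ± 5.1 CPM (SD, n = 3; adjusted p = 1.9e-27 in edgeR's test). Its share of the PEA3 FPKM went from 57.3% ± 0.34 to 82.6% ± 1.6, while that of ETV4 went from 13.5% ± 0.71 to 2.08% ± 0.38 and that of ETV5 from 29.1% ± 0.78 to 15.3% ± 1.8. Summed FPKM of the family fell to 24.2% of control. Exons of ETV4 share 1.89% of their bases with DHX8 on the opposite strand, which had 3860 to 4108 counts in control and 3770 to 4250 counts in PPM1G shRNA libraries (adjusted p = 0.58). Exons of ETV5 share 2.83% of their bases with DGKG on the same strand, which fell by 2.52 (SE 0.19) from 173 to 201 counts in control to 31 to 36 counts in PPM1G shRNA libraries. ETV5 itself had 3126 to 3367 and 366 to 437 counts.

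**Figure D3:**
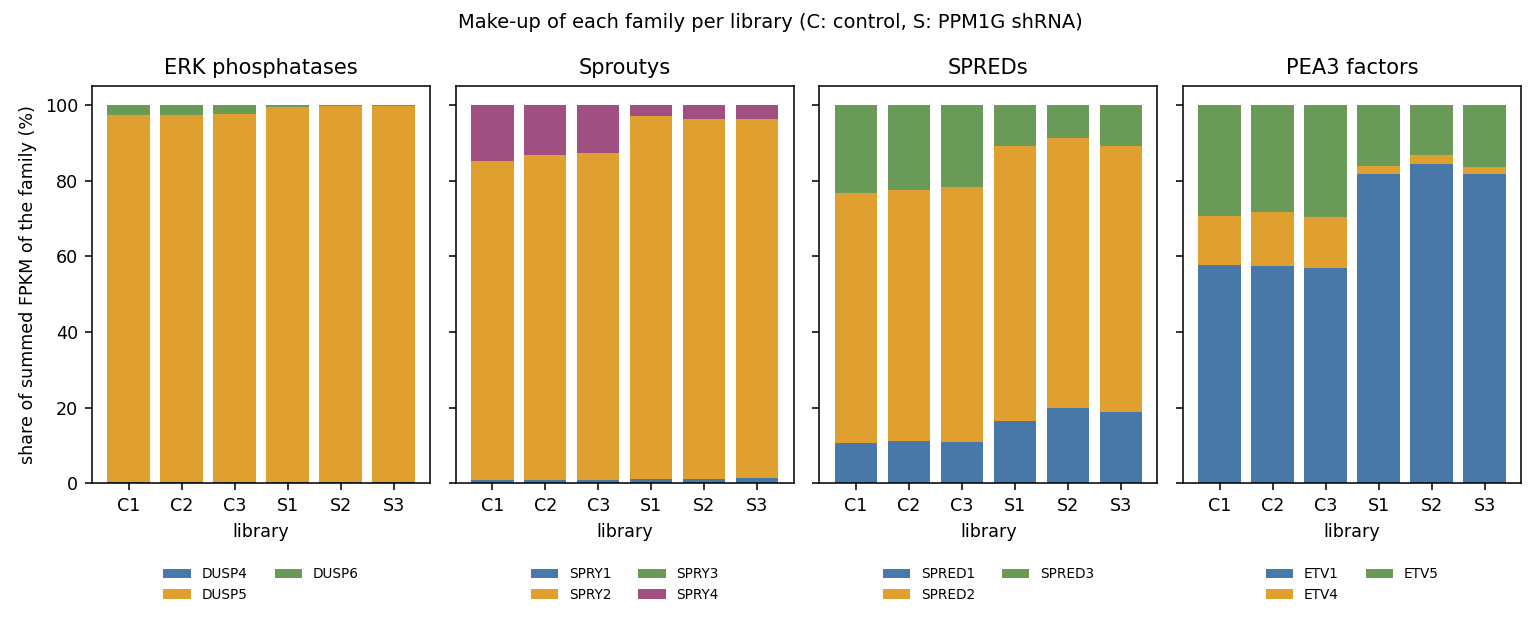
Share of the summed FPKM of a family taken by each of its genes (y axis, percent) in control libraries C1 to C3 and PPM1G shRNA libraries S1 to S3, for the ERK phosphatases, Sproutys, SPREDs and PEA3 factors. DUSP6, SPRY4, SPRED3, ETV4 and ETV5 take smaller shares in all 3 PPM1G shRNA libraries. DUSP4, DUSP5, SPRY1, SPRY2, SPRY3, SPRED1, SPRED2 and ETV1 take larger ones, with SPRY1 and SPRY3 scarce in both groups.

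PHLDA1, a pleckstrin homology-like protein induced by growth factors (Entrez 22822; chromosome 12, positions 76025447 to 76031776), stood at 262, 274 and 261 CPM in control libraries and at 170.3, 165 and 167 CPM in PPM1G shRNA libraries. The spread within each group was small against the gap between them. It fell by 0.67 on the log2 scale (SE 0.03, adjusted p = 3.3e-19 in edgeR's test). Its exons share 6.85% and 9.65% of their bases with the antisense genes AC011611.3 and AC011611.4, which were not analysed here.

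Other genes of the pathway were taken from lists written from textbook knowledge, with earlier results of these data known. Their counts are therefore no independent check of the 10 ERK feedback genes. Of 17 other ERK-induced genes, 13 fell and 4 rose, with a median log2 fold change of −0.79. Among all 13060 genes tested, 5399 (41.3%) fell and 5422 rose, which is the background for this and each list below. CCND1, which encodes cyclin D1 and is a classical late ERK target, fell by 2.71 (SE 0.03), from 616 ± 19 to 93.9 ± 4.2 CPM (SD, n = 3; adjusted p = 3.4e-34 in edgeR's test). The immediate early factor EGR1 fell by 2.13 (SE 0.10), the AP-1 subunit gene FOSL1 by 2.07 (SE 0.04), and the urokinase receptor gene PLAUR by 2.03 (SE 0.04). The Ephrin receptor genes EPHA2 and EPHA4 fell by 0.79 (SE 0.03) and 0.19 (SE 0.08, adjusted p = 0.029), the latter no longer with scaling by library totals (−0.09, adjusted p = 0.30) or upper quartiles (−0.15, adjusted p = 0.082). The 4 that rose were chosen for naming after their values were seen: LIF (0.99, SE 0.04), TNFRSF12A (0.68, SE 0.03), MYC (0.33, SE 0.03) and IER3 (0.22, SE 0.03).

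The other MAP kinase phosphatases moved both ways. Of 7 genes, 5 passed the filter, 2 rose and 1 fell. DUSP7, which encodes another cytoplasmic phosphatase selective for ERK, fell by 1.45 (SE 0.05), from 65.0 ± 2.9 to 23.7 ± 0.83 CPM (SD, n = 3; adjusted p = 2e-22 in edgeR's test). DUSP8 and DUSP10, which act on JNK and p38, rose by 1.87 (SE 0.24) and 0.66 (SE 0.07), DUSP8 from only 0.776 ± 0.031 CPM. DUSP1, an immediate early phosphatase gene, stood at 113 ± 4.9 CPM in control and 115 ± 2.3 CPM in PPM1G shRNA libraries (adjusted p = 0.51, and 0.0029 with scaling by library totals).

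Transcripts of the kinase cascade itself changed by smaller amounts and in both directions. Of 22 genes from adaptors to ERK and its RSK substrates, 9 rose and 11 fell, with a median log2 fold change of −0.06, and 0 fell by 2-fold. Of all 13060 genes tested, 5422 rose and 5399 fell, so these counts alone do not set the cascade apart. MAPK3, which encodes an ERK kinase, rose by 0.12 (SE 0.04, adjusted p = 0.010 in edgeR's test), and the MEK genes MAP2K1 and MAP2K2 changed by −0.36 (SE 0.05) and 0.13 (SE 0.03). The adaptor gene FRS2, which links FGF receptors to the cascade, rose by 1.12 (SE 0.05), and the phosphatase gene PTPN11, a positive regulator of RAS, fell by 0.97 (SE 0.04, adjusted p = 1e-21 in edgeR's test). SOS2, an activator of RAS, fell by 0.77 (SE 0.04), and the scaffold gene KSR1 rose by 0.67 (SE 0.05). With scaling by library totals 11 of the 22 rose and 9 fell, and RPS6KA2 and RPS6KA3, singled out after their values were seen, no longer fell (adjusted p = 0.059 and 0.12). Of 9 other brakes on the pathway, 6 fell and 2 rose, with a median of −0.36. The EGFR inhibitor gene ERRFI1 fell by 0.82 (SE 0.03), the RAS inactivator gene RASA2 by 0.54 (SE 0.05) and the RAF inhibitor gene PEBP1 by 0.51 (SE 0.04), and the RAS inactivator gene DAB2IP rose by 0.59 (SE 0.04).

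Of 30 receptor and ligand genes, 23 passed the filter, 10 rose and 8 fell, with a median of 0.07. This count, and that of the ETS factors below, stands beside 5422 genes that rose and 5399 that fell among all 13060 tested. MET, the hepatocyte growth factor receptor gene, named after its values were seen because of its high level, fell by 1.06 (SE 0.02), from 7086 ± 167 to 3400 ± 18 CPM (SD, n = 3; adjusted p = 6.5e-28 in edgeR's test). The EGFR ligand genes TGFA and EGF fell by 2.74 (SE 0.17) and 1.54 (SE 0.25), whereas AREG rose by 1.41 (SE 0.08). FGF1 fell by 1.48 (SE 0.06). Of 17 other ETS factors and their regulators, 16 were tested, 8 rose and 7 fell, with a median of 0.13. CIC, the repressor of PEA3 genes, fell by 1.07 (SE 0.04), from 178 ± 4.1 to 84.9 ± 1.3 CPM, while ATXN1L, which encodes its partner, rose by 1.09 (SE 0.04). ERG fell by 1.93 (SE 0.46) from 0.767 ± 0.32 CPM, and ELK3 by 1.26 (SE 0.03).

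**Figure D4:**
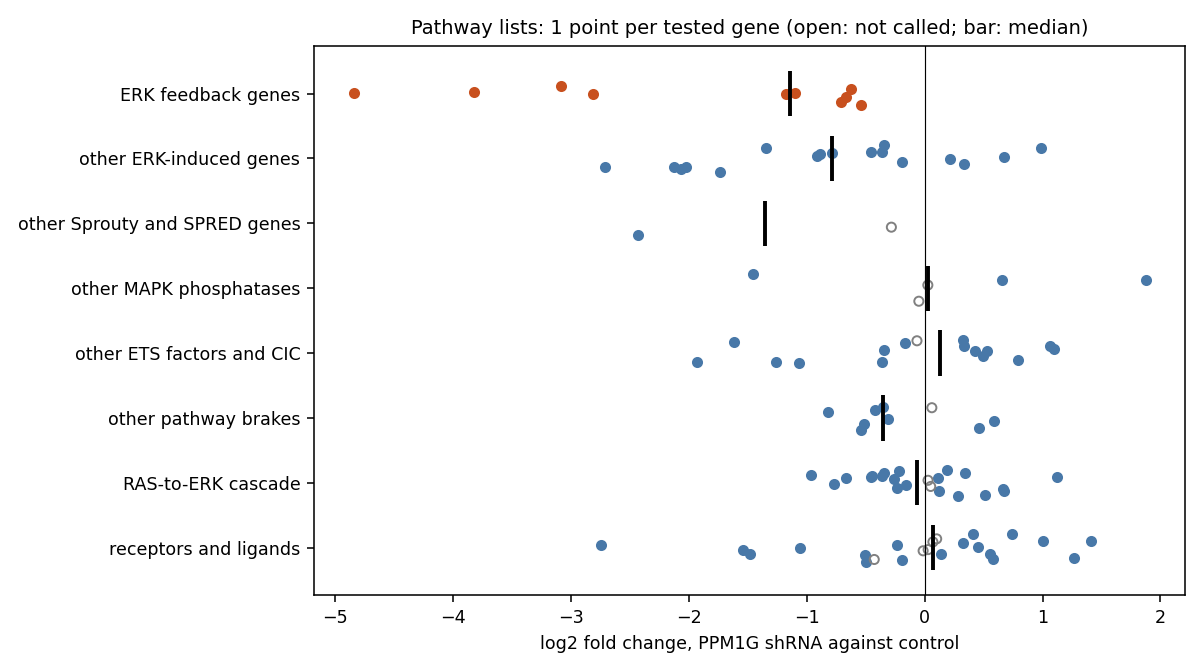
Log2 fold change of PPM1G shRNA against control (x axis) for each tested gene of the ERK feedback genes and 7 lists of the pathway (filled: adjusted p under 0.05 in edgeR's test; open: not called; black bar: median; vertical jitter has no meaning). The ERK feedback genes and the other ERK-induced genes lie mostly left of 0 (medians −1.14 and −0.79), whereas cascade genes centre near −0.06.

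Proliferation genes moved with these changes. All 6 genes of a short list (MKI67, TOP2A, CDK1, CCNB1, PCNA and MCM2) fell, where 41.3% of all genes tested fell. Their summed level was 1513 to 1620 CPM in control and 211 to 213 CPM in PPM1G shRNA libraries. Their part in the fall of the ERK feedback genes was not tested.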

How the data were processed

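RNA sequencing counts of 6 libraries, 3 control and 3 PPM1G shRNA, were analysed. The counts deposited by the authors are whole numbers with unequal totals, read here as unnormalized. The deposited FPKM values equal these counts scaled by the library total and by a single length for each gene. The genome build was GRCh38, per the submitters' processing notes. Aligner, counter and strand setting were not given in the sources used here. Library totals were 31337553 to 35838246 counts. Libraries of 1 group differed beyond counting error (chi-square per degree of freedom 2.69 to 6.44). Each was treated as a replicate, but this spread does not show whether libraries came from separate cultures.

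Genes passing edgeR's filter at a minimum of 10 counts were fitted with group as the only term (edgeR 4.0.16, R 4.3.3, TMM factors, robust quasi-likelihood), with Benjamini-Hochberg adjustment over all 13060 genes tested and a threshold of 0.05. SE was obtained from the log2 fold change and the root of its F statistic. CPM values are TMM-scaled, and FPKM values are as deposited. Alternatives used DESeq2 1.42.0, limma 3.58.1 on log2(FPKM + pseudocount), other scaling and filters, left-out libraries and a replicate block. The fit was tested on simulated data in which few genes changed, in both directions. Such data cannot test the scaling where most genes are called, as here.

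The members and the pathway lists were chosen with earlier results of these data known. Named genes are the members, PPM1G, CCND1, EPHA2 and EPHA4, up to 4 called genes of each list, taken by size of change, and family members needed for a comparison. Protein comparisons were planned but not made here. The count of GGAA cores was added after the other motifs had no match. One gene of the kinase cascade list is not reported here by name.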

Additional observations from a re-analysis of the deposited data

How the results depend on the processing

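All 10 ERK feedback genes fell at an adjusted p under 0.05 under each of 15 alternatives: 3 other scalings, 2 other filters, DESeq2, limma at 2 pseudocounts, 6 left-out libraries and the replicate block. Leaving out 1 library moved ETV4 between −4.99 and −4.68 and DUSP6 between −3.97 and −3.75. On the log2(FPKM + 1) scale, which understates low genes by construction, ETV4 stood at −3.03, SPRED1 at −0.32 and DUSP4 at −0.26. DUSP5 and SPRED2 stood at −0.9999 and −0.998 on that scale, just short of 2-fold. With library totals DUSP5 stood at −1.004. Library totals in place of TMM factors raised the median of all genes by 0.10. Without a filter and with DESeq2, 2 of the other MAP kinase phosphatases fell in place of 1. Each other count of genes that rose or fell stayed within 1.5 times its value, and each paralog ratio kept its direction and moved by less than 1 SD. The balance of the kinase cascade turned: 9 rose and 11 fell, against 11 and 9 with library totals and with limma at a pseudocount of 0.1, and 10 and 9 at a pseudocount of 1. For the other ETS factors, 8 rose and 7 fell, against 8 and 8 without PPM1G shRNA library 1. No pairing of libraries by replicate number was seen: same-numbered libraries correlated at 0.01, −0.02 and 0.00 in their deviations. Counting error of low genes can weaken such correlations, so a pairing is not excluded. With the replicate block all 10 genes fell and 10805 genes were called, against 10821. With few counts, as for ETV4 in PPM1G shRNA libraries, counting error limits the precision.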
